A study of Mus musculus with 12 samples.

Results

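The 9 genes described here code for the ligand TGF-β1 (Tgfb1), the TGF-β receptors (Tgfbr1, Tgfbr2), the signal transducers SMAD2, SMAD3 and SMAD4 (Smad2, Smad3, Smad4) and 3 inhibitors of SMAD signalling (Smad7, Ski, Skil). They were taken by gene symbol, from a list drawn up with earlier results of these data known, and all 9 were found among the 11022 genes of the expression table. The cells were P14 CTL, cytotoxic CD8+ T lymphocytes grown from mice whose T cells carry 1 transgenic T cell receptor (TCR) for the gp33 peptide of the virus LCMV, and the mice were adult females. Spleen or lymph node cells were activated for 48 h with peptide, IL-2 and IL-12, expanded in IL-2 and used on day 7. All 12 cultures were kept in IL-2 at 20 ng/mL, fell into 4 groups of 3 and differed in their last 4 h: CTL were left unstimulated, or were retriggered with peptide at 100 ng/mL alone (TCR), with the PI3K p110δ inhibitor IC87114 at 10 µM (TCR+PI3Kdi) or with the MEK inhibitor PD184252 at 2 µM (TCR+MEKi). The vehicle was DMSO. The cultures were not sorted, the cells of 3 mice gave the 3 biological replicates, and p-values measure the spread between these cultures.

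TGF-β is made as a latent precursor and, once released, binds a type II receptor (TGFBR2) that phosphorylates the type I receptor (TGFBR1). TGFBR1 in turn phosphorylates SMAD2 and SMAD3, which bind SMAD4 and control transcription in the nucleus, where SKI and SKIL (also called SnoN) oppose them, whereas SMAD7 blocks the receptor. In CD8+ T cells the pathway is known for restraining proliferation and cytotoxic function and for promoting tissue residence.

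Values are FPKM, fragment counts per exon length and library size, from mRNA sequencing, scaled by the authors with TMM. The depth of a sample was not in the table, and the steps between low FPKM gave approximate effective depths of 7720000 to 13170000 reads. By that estimate Tgfbr1 rested on 113 to 209 reads and Smad7 on 96.2 to 226 reads per sample, the lowest of the members, and Tgfb1 on 5996 to 10735 reads, so counting error weighs most on the first pair. The labelled cell type was checked with marker genes: 7 of 7 T cell markers were in the table, with a summed level of 10107 to 11239 FPKM in unstimulated CTL and 14557 to 16417 FPKM in the retriggered groups. None of 3 B cell and 5 myeloid markers was in the table, and neither were Foxp3, the platelet markers Pf4, Ppbp and Gp9, or the fibroblast markers Col3a1, Dcn and Pdgfrb. Cd4 lay between 0.28 and 3.65 FPKM, Itga2b between 0.21 and 0.50 FPKM and Col1a1 between 0 and 0.43 FPKM, with Cd4 and Col1a1 highest in the TCR or TCR+PI3Kdi cultures. The part of these low signals in the results was not tested. In these bulk cultures, fewer cells of a type and less RNA per cell cannot be told apart.

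All 9 genes were matched to GENCODE M21 on GRCm38 (mm10), and no exon of a member overlapped an exon of another annotated gene. Tgfb1 lies on chromosome 7 from 25687002 to 25705077 (plus strand), Tgfbr1 on chromosome 4 from 47353222 to 47414931 (plus) and Tgfbr2 on chromosome 9 from 116084293 to 116175360 (minus). Smad3 lies on chromosome 9 from 63646767 to 63757994 (minus). Ski lies on chromosome 4 from 155154075 to 155222592 (minus) and Skil on chromosome 3 from 31095058 to 31122577 (plus).

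The promoters of Tgfbr2 and Smad3 are shown because these are the members with the largest change on TCR triggering and with the MEK inhibitor, respectively. Each line gives the 250 bases before the RefSeq transcription start on GRCm38.p6, read 5′ to 3′ on the gene's minus strand, with a match to CAGAC, the core SMAD binding element, in capitals.
Tgfbr2, chr9:116175364-116175613: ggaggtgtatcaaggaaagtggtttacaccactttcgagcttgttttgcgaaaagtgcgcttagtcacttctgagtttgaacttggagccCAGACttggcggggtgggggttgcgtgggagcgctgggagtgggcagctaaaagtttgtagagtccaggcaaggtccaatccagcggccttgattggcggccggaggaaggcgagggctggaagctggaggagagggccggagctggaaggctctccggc
Smad3, chr9:63757995-63758244: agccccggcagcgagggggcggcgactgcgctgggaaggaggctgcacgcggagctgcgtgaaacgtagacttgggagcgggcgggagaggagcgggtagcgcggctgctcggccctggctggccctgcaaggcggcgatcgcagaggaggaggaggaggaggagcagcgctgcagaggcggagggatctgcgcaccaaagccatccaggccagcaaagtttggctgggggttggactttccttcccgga
Both strands were searched for CAGAC and for the AP-1 element TGANTCA, whose matches do not overlap each other. The Tgfbr2 window held 1 CAGAC, 160 to 156 bases before the start, and no TGANTCA, and the Smad3 window held neither. Among 32851 RefSeq promoter windows of the same length, 42.2% held CAGAC and 6.75% held TGANTCA, so a CAGAC match is common. The Tgfbr2 window was 58.4% G or C with 12 CpG and the Smad3 window 69.2% with 22 CpG, against medians of 52.4% and 6 CpG over all windows. Such matches describe the letters and not binding.

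Retriggering the TCR for 4 h lowered Tgfbr2 by more than 2-fold and raised the inhibitor genes Smad7, Ski and Skil by 1.94-fold to 2.18-fold. Smad3 rose as well, by a smaller factor that missed the threshold on the TPM scale (each culture rescaled to 1 common FPKM sum), and the rises of Tgfb1 (1.21-fold) and Smad4 (1.17-fold) turned to falls on that scale that missed the threshold. In all, 7 of 9 members passed an adjusted p of 0.05 in this comparison, 6 higher and 1 lower, where 68.6% of all genes passed (33.6% higher and 34.9% lower). Past the adjusted p and a change of more than 2-fold were 3 of 9 members, Smad7 and Skil higher and Tgfbr2 lower, against 20.0% of all genes (8.87% higher and 11.1% lower). The 3 cultures of each group did not overlap in 8 of 9 members, against 71.2% of genes, and Smad4 was the exception.

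**Figure D1:**
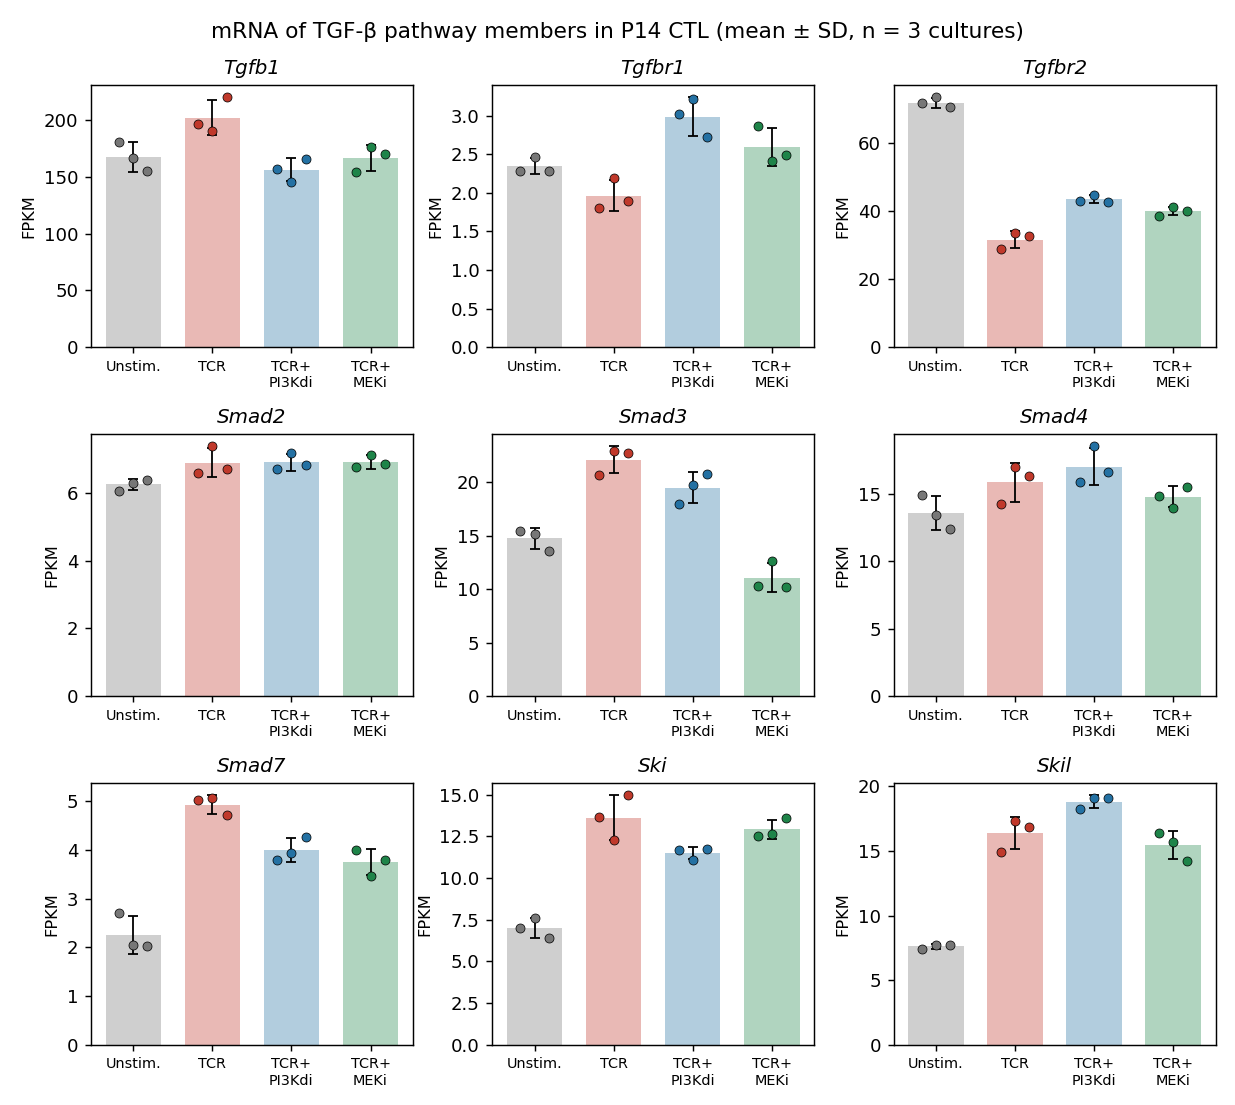
FPKM of the 9 members in unstimulated CTL (grey), TCR (red), TCR+PI3Kdi (blue) and TCR+MEKi (green), each on its own linear axis from 0; points are cultures in the order of replicates 1 to 3, bars the mean and whiskers the SD (n = 3). Tgfbr2 was highest in unstimulated CTL, Smad7, Ski and Skil were lowest there, and Smad3 was lowest in TCR+MEKi.

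The ligand gene Tgfb1 was the most abundant member. Its FPKM was 181, 167 and 155 in unstimulated cultures, 196, 190.3 and 220.0 in TCR, 157, 146 and 166 in TCR+PI3Kdi, and 154, 176 and 170.2 in TCR+MEKi cultures (replicates 1 to 3, the order used throughout). Every TCR culture lay above every culture of the other groups, which overlapped with each other. The log2 change on TCR triggering was 0.27 ± 0.08 (SE, adjusted p = 0.00491, n = 3 per group), but 0.03 after quantile normalisation and -0.14 on the TPM scale. Against TCR it was -0.37 ± 0.08 with the PI3K inhibitor (adjusted p = 0.00235) and -0.28 ± 0.08 with the MEK inhibitor (adjusted p = 0.00991). Neither inhibitor effect kept its call on those scales (TPM: -0.19 and -0.02, quantile: -0.21 and -0.13). The MEK inhibitor effect also lost its call without TCR replicate 3 (-0.22, adjusted p = 0.0526) or TCR+MEKi replicate 1 (-0.22, adjusted p = 0.0531).

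Tgfbr2, the gene of the type II receptor, had the largest fall among the members. Its FPKM was 71.6, 73.4 and 70.5 in unstimulated CTL, 28.7, 33.6 and 32.6 in TCR, 42.9, 44.8 and 42.6 in TCR+PI3Kdi, and 38.7, 41.1 and 40.0 in TCR+MEKi. The 4 groups did not overlap in any pair. The mean fell to 0.440 of the unstimulated level on TCR triggering (log2 change -1.18 ± 0.06, adjusted p = 1.8e-10), and 14.8% of all genes changed more in size. Both inhibitors left Tgfbr2 higher than TCR alone, by a log2 change of 0.46 ± 0.06 for PI3K (adjusted p = 8.5e-05) and 0.34 ± 0.06 for MEK (adjusted p = 0.00053), but still lower than unstimulated CTL by -0.73 ± 0.06 and -0.85 ± 0.06 (adjusted p = 7.1e-08 and 1.3e-08). The inhibitor groups differed by -0.12 (MEK minus PI3K, 95% interval -0.25 to 0.01, adjusted p = 0.144). Every direction against unstimulated CTL or TCR held on each scale tried, and the fall on TCR triggering was -1.60 on the TPM scale.

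Tgfbr1, which codes for the type I receptor, was far less abundant. It measured 2.28, 2.47 and 2.29 FPKM in unstimulated CTL, 1.81, 2.19 and 1.89 in TCR, 3.02, 3.22 and 2.72 in TCR+PI3Kdi, and 2.87, 2.42 and 2.49 in TCR+MEKi. The TCR cultures were the lowest 3 of the 12. Against TCR the log2 change was 0.58 ± 0.12 with the PI3K inhibitor (adjusted p = 0.00308, higher in 3 of 3 same-numbered pairs) and 0.39 ± 0.12 with the MEK inhibitor (adjusted p = 0.0239, 3 of 3 pairs). On TCR triggering it was -0.25 ± 0.12 and missed the threshold (adjusted p = 0.0850, 95% interval -0.51 to 0.01), although with TPM scaling, at -0.66, and without TCR replicate 2, at -0.33, it passed (adjusted p = 0.000591 and 0.0458). The MEK inhibitor effect lost its call after quantile normalisation (0.29, adjusted p = 0.0812) and without TCR replicate 1 (0.33), TCR replicate 3 (0.36) or TCR+MEKi replicate 1 (0.31). Against unstimulated CTL, TCR+PI3Kdi was higher by 0.33 ± 0.12 (adjusted p = 0.0287), a call lost on the TPM scale (0.11) and without either of unstimulated replicates 1 and 3 (0.31 and 0.32) or of TCR+PI3Kdi replicates 1 and 2 (0.32 and 0.28).

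Smad3, a receptor-regulated SMAD that binds DNA, set the inhibitors apart. It measured 15.5, 15.2 and 13.6 FPKM in unstimulated CTL, 20.7, 22.9 and 22.8 in TCR, 17.97, 19.8 and 20.8 in TCR+PI3Kdi, and 10.3, 12.7 and 10.2 in TCR+MEKi. The TCR+MEKi cultures lay below all 9 others, and TCR and TCR+PI3Kdi overlapped. With the MEK inhibitor the mean was 0.501 of the TCR level (log2 change -0.997 ± 0.091, adjusted p = 1.3e-06, lower in 3 of 3 pairs), a change that 3.59% of all genes exceeded in size. It was just short of 2-fold, and passed 2-fold without TCR replicate 1 (-1.04) or TCR+MEKi replicate 2 (-1.10). Smad3 in TCR+MEKi was also lower than in unstimulated CTL (-0.41 ± 0.09, adjusted p = 0.00112) and than in TCR+PI3Kdi (-0.82 ± 0.09, adjusted p = 1.1e-05), and all 3 falls kept their direction and their call on the TPM scale (-0.74, -0.57 and -0.74). The rise on TCR triggering was 0.58 ± 0.09 (adjusted p = 4.3e-05) and that of TCR+PI3Kdi over unstimulated CTL was 0.40 ± 0.09 (adjusted p = 0.00139), but on the TPM scale both were 0.17 and missed the threshold. TCR+PI3Kdi differed from TCR by -0.18 (95% interval -0.38 to 0.01, adjusted p = 0.159) and by 0.00 on the TPM scale.

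Smad2, the other receptor-regulated SMAD of the pathway, varied least. It measured 6.07, 6.31 and 6.40 FPKM in unstimulated CTL, 6.59, 7.39 and 6.71 in TCR, 6.72, 7.19 and 6.83 in TCR+PI3Kdi, and 6.77, 7.14 and 6.86 in TCR+MEKi. The 3 retriggered groups overlapped, and all 9 of their cultures lay above the unstimulated ones. The log2 change on TCR triggering was 0.14 (95% interval -0.03 to 0.31, adjusted p = 0.143), and its sign depended on the scale, with 0.19 after quantile normalisation (adjusted p = 0.0448) but -0.27 on the TPM scale (adjusted p = 0.0174). The change against TCR was 0.00 with the PI3K inhibitor (95% interval -0.17 to 0.18) and 0.01 with the MEK inhibitor (-0.16 to 0.18).

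Smad4, the shared partner of the receptor-regulated SMADs, measured 14.95, 13.4 and 12.4 FPKM in unstimulated CTL, 14.3, 17.0 and 16.4 in TCR, 15.9, 18.6 and 16.7 in TCR+PI3Kdi, and 14.8, 13.98 and 15.6 in TCR+MEKi. Unstimulated and TCR cultures overlapped. The log2 change on TCR triggering was 0.22 ± 0.09 (adjusted p = 0.0386), and on the TPM scale it was -0.19. That call was lost when any one of unstimulated replicate 2 (0.22), unstimulated replicate 3 (0.16), TCR replicate 2 (0.17) or TCR replicate 3 (0.20) was left out. TCR+PI3Kdi was 0.32 ± 0.09 above unstimulated CTL (adjusted p = 0.00573), or 0.10 on the TPM scale (adjusted p = 0.459). Against TCR the log2 change was 0.10 with the PI3K inhibitor (95% interval -0.09 to 0.29) and -0.10 with the MEK inhibitor (-0.29 to 0.09).

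Smad7, whose product competes for the activated type I receptor and brings ubiquitin ligases to it, was among the least abundant members. It measured 2.71, 2.05 and 2.02 FPKM in unstimulated CTL, 5.03, 5.06 and 4.71 in TCR, 3.80, 3.93 and 4.27 in TCR+PI3Kdi, and 4.00, 3.46 and 3.79 in TCR+MEKi. All TCR cultures lay above all cultures with an inhibitor, which in turn lay above all unstimulated ones. The mean rose 2.18-fold on TCR triggering (log2 change 1.10 ± 0.12, adjusted p = 1.2e-06), which was under 2-fold with a pseudocount of 1 (0.87) or on the TPM scale (0.71). Against TCR it was lower with the MEK inhibitor, by -0.39 ± 0.12 (adjusted p = 0.0214, 3 of 3 pairs), and the value with the PI3K inhibitor was -0.30 ± 0.12 (adjusted p = 0.0872). The MEK call was lost on the TPM scale (-0.13) and without TCR replicate 1 (-0.37), TCR replicate 2 (-0.37) or TCR+MEKi replicate 2 (-0.33), while the PI3K value passed after quantile normalisation (-0.38, adjusted p = 0.0323). The inhibitor groups differed by -0.09 (MEK minus PI3K, 95% interval -0.35 to 0.17), and both stayed above unstimulated CTL, by 0.81 ± 0.12 for PI3K and 0.72 ± 0.12 for MEK (adjusted p = 4.0e-05 and 0.000132).

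Ski and Skil code for related co-repressors that bind SMAD complexes. Ski measured 7.02, 7.60 and 6.41 FPKM in unstimulated CTL, 13.7, 12.3 and 14.96 in TCR, 11.7, 11.1 and 11.7 in TCR+PI3Kdi, and 12.5, 12.7 and 13.6 in TCR+MEKi. Every retriggered culture lay above every unstimulated one. The mean rose 1.94-fold on TCR triggering (log2 change 0.95 ± 0.09, adjusted p = 1.6e-07), just inside 2-fold. The change passed 2-fold without unstimulated replicate 2 (1.01) or TCR replicate 2 (1.02), but was smaller with a pseudocount of 1 (0.87) and on the TPM scale (0.54). Against TCR the log2 change was -0.24 ± 0.09 with the PI3K inhibitor (adjusted p = 0.0563) and -0.07 with the MEK inhibitor (95% interval -0.26 to 0.11). The first of these passed after quantile normalisation (-0.26, adjusted p = 0.0437) or without TCR replicate 2 (-0.31, adjusted p = 0.0226), and on the TPM scale the values were -0.06 and 0.19.

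Skil measured 7.42, 7.74 and 7.74 FPKM in unstimulated CTL, 14.9, 17.3 and 16.9 in TCR, 18.3, 19.1 and 19.1 in TCR+PI3Kdi, and 16.4, 15.7 and 14.2 in TCR+MEKi. It was highest with the PI3K inhibitor, where all 3 cultures lay above all 9 others. The mean rose 2.15-fold on TCR triggering (log2 change 1.09 ± 0.07, adjusted p = 6.3e-09), or by 0.68 on the TPM scale, which is under 2-fold. Against TCR the value was 0.20 ± 0.07 with the PI3K inhibitor (adjusted p = 0.0608), which passed on the TPM scale (0.38, adjusted p = 0.00474) and without TCR replicate 2 (0.24, adjusted p = 0.0483). With the MEK inhibitor it was -0.08 (95% interval -0.24 to 0.08) and turned to 0.18 on the TPM scale (adjusted p = 0.115). The inhibitor groups themselves differed, by -0.29 ± 0.07 (MEK minus PI3K, adjusted p = 0.00972, lower in 3 of 3 pairs), a call lost on the TPM scale (-0.21, adjusted p = 0.105) or without TCR+MEKi replicate 3 (-0.23, adjusted p = 0.0571).

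The inhibitors are compounds against different kinases, so each comparison sets single doses side by side at the same 4 h. With the PI3K inhibitor, 3 of 9 members differed from TCR at an adjusted p under 0.05 (Tgfbr1 and Tgfbr2 higher, Tgfb1 lower), where 25.6% of all genes did (12.7% higher, 12.8% lower), and 0 changed over 2-fold, where 1.88% of genes did (0.499% higher, 1.38% lower). With the MEK inhibitor, 5 of 9 members did (Tgfbr1 and Tgfbr2 higher, Tgfb1, Smad3 and Smad7 lower), where 37.1% of all genes did (18.9% higher, 18.2% lower), and again 0 changed over 2-fold, where 3.49% of genes did (0.980% higher, 2.51% lower). Both comparisons use the same TCR cultures. Taken directly against each other, TCR+MEKi and TCR+PI3Kdi differed in 2 of 9 members, Smad3 and Skil, both lower with the MEK inhibitor, where 28.9% of all genes passed (14.5% higher, 14.4% lower) and 3.09% changed over 2-fold (1.39% higher, 1.71% lower), as 0 members did. Groups did not overlap in 6, 5 and 5 of the 9 members in these comparisons, against 37.6%, 48.8% and 43.6% of genes.

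**Figure D2:**
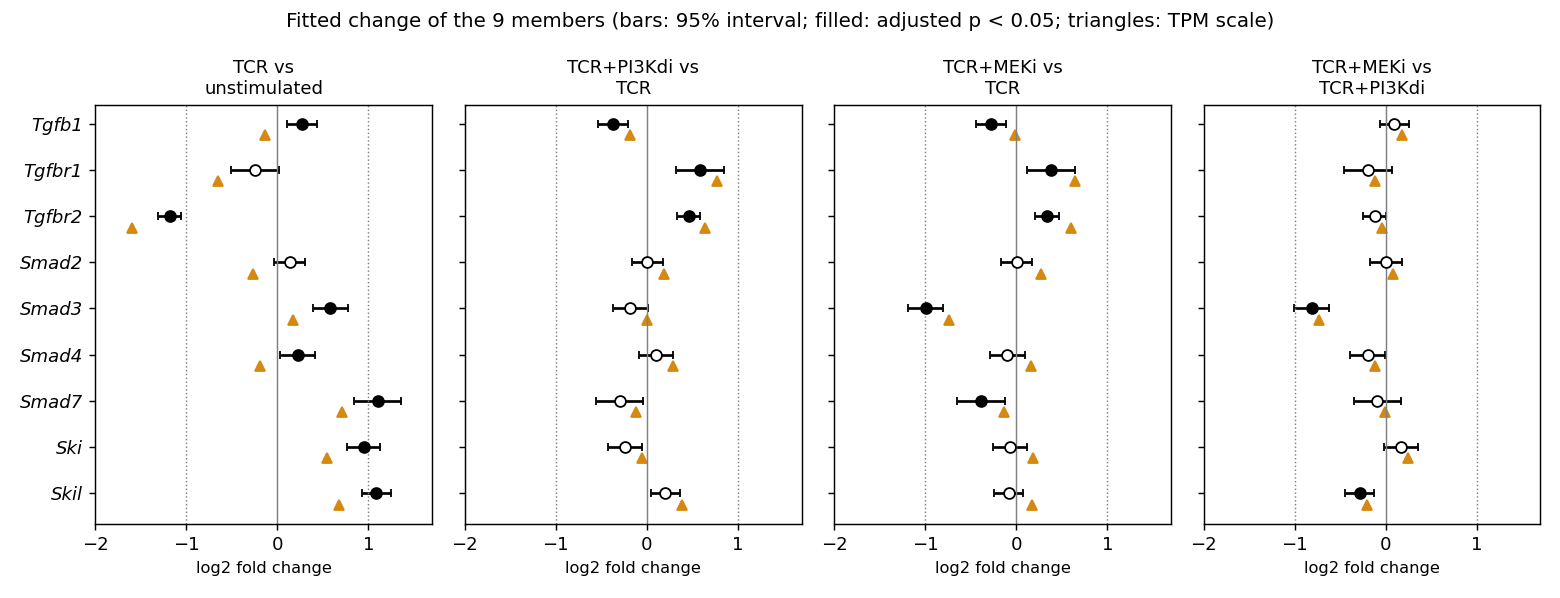
Fitted log2 fold change of each member (points) with its 95% interval (bars) in 4 comparisons; filled points passed an adjusted p of 0.05, triangles give the change on the TPM scale and dotted lines mark 2-fold. Tgfbr2 on TCR triggering (-1.18) and Smad3 with the MEK inhibitor (-0.997) were the largest falls, and on the TPM scale Tgfb1, Smad2 and Smad4 changed sign on TCR triggering.

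Against unstimulated CTL, TCR+PI3Kdi differed in 7 of 9 members, 6 higher and Tgfbr2 lower, where 62.5% of genes passed (31.7% higher, 30.8% lower). Skil alone among them was over 2-fold (log2 change 1.29 ± 0.07, adjusted p = 1.3e-09), as were 14.6% of genes (7.16% higher, 7.43% lower). TCR+MEKi differed in 5 of 9 members, where 59.6% of genes passed (28.9% higher, 30.7% lower): Smad7, Ski (0.88 ± 0.09, adjusted p = 5.6e-07) and Skil were higher, and Tgfbr2 and Smad3 lower. Skil was over 2-fold there by a narrow margin (1.00 ± 0.07, adjusted p = 2.4e-08), against 13.4% of genes (6.95% higher, 6.46% lower), and fell under 2-fold with a pseudocount of 1 (0.93), on the TPM scale (0.86) and without unstimulated replicate 1 (0.98), TCR+MEKi replicate 1 (0.96) or TCR+MEKi replicate 2 (0.99). The groups did not overlap in 8 and 6 of 9 members, against 66.0% and 66.7% of genes.

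The scale used matters for the smaller changes above. With the deposited TMM-scaled values the median log2 change of all genes was between -0.01 and 0.02 in the 6 comparisons. When each culture was rescaled to the same FPKM sum (the TPM scale), that median was -0.42 for TCR against unstimulated CTL, 0.20 for TCR+PI3Kdi and 0.27 for TCR+MEKi against TCR, and 0.07 for TCR+MEKi against TCR+PI3Kdi. On that scale 22.2% of the genes past both thresholds on TCR triggering were higher, against 44.4% on the TMM scale, and the shares were 56.8% against 26.6% with the PI3K inhibitor and 63.3% against 28.1% with the MEK inhibitor.

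Ratios between members within a culture do not depend on that scale. The number of Smad3 FPKM per Smad2 FPKM was 2.36 ± 0.21 in unstimulated CTL, 3.21 ± 0.16 in TCR, 2.82 ± 0.20 in TCR+PI3Kdi and 1.60 ± 0.15 in TCR+MEKi (SD, n = 3). No pair of groups overlapped in this ratio. The 4 groups differed by an exact permutation test over the 12 cultures (p = 6.5e-05, the smallest this test can give, and 0.00026 after Benjamini-Hochberg adjustment over the 4 ratios computed). The test for each ratio permuted the cultures freely and so ignored any pairing by replicate number. A version within replicates was not run. Between a pair of groups of 3 the smallest exact p is 0.1, so pairs are described only.

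The ratio of Smad7 to Smad3 was 0.153 ± 0.021 in unstimulated CTL, 0.224 ± 0.018 in TCR, 0.205 ± 0.006 in TCR+PI3Kdi and 0.343 ± 0.062 in TCR+MEKi (exact permutation p = 0.00013, adjusted p = 0.00026). It was 2.23-fold higher in TCR+MEKi than in unstimulated CTL, since Smad7 was higher and Smad3 lower there. The ratio of Skil to Ski was 1.09 ± 0.10, 1.21 ± 0.18, 1.64 ± 0.08 and 1.20 ± 0.14 in the same order (exact permutation p and adjusted p = 0.0132). It set TCR+PI3Kdi above every culture of the other 3 groups, which overlapped. The ratio of Tgfbr1 to Tgfbr2 was 0.0327 ± 0.0009 in unstimulated CTL, 0.0621 ± 0.0037 in TCR, 0.0687 ± 0.0043 in TCR+PI3Kdi and 0.0651 ± 0.0081 in TCR+MEKi (exact permutation p = 0.00786, adjusted p = 0.0105). All retriggered cultures were above the unstimulated ones and overlapped among themselves.

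**Figure D3:**
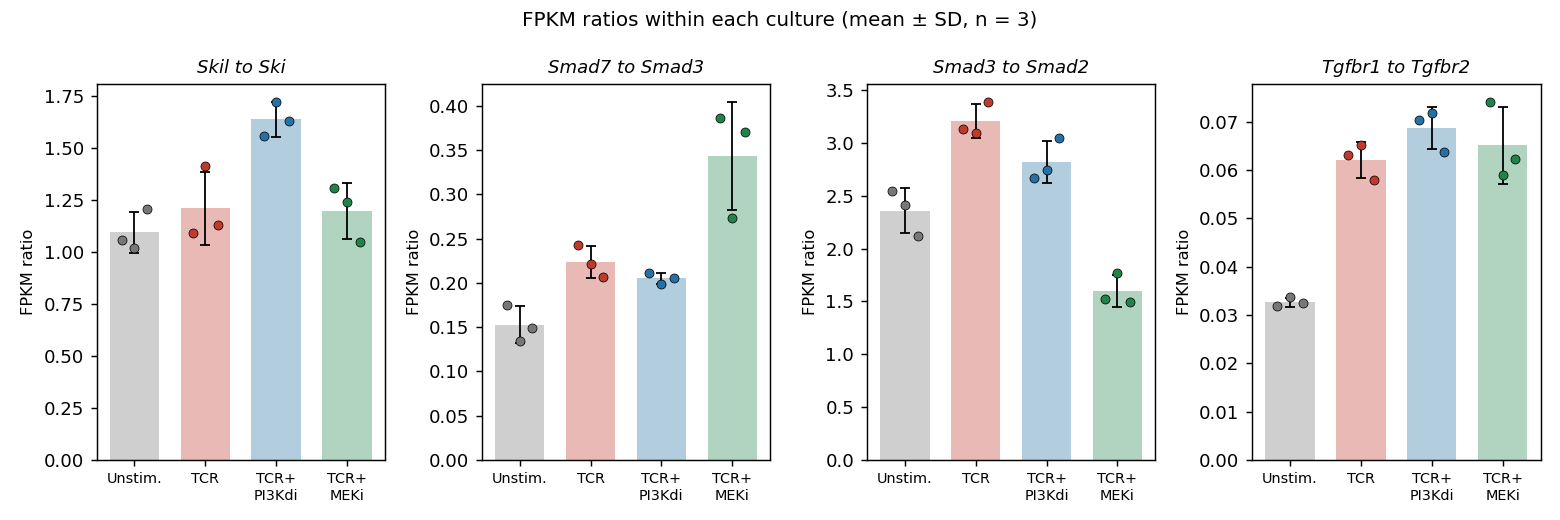
Ratios of FPKM within each culture (points, replicates 1 to 3), with the group mean (bars from 0) and SD (whiskers, n = 3). Smad3 to Smad2 fell to 1.60 in TCR+MEKi from 3.21 in TCR, and Skil to Ski reached 1.64 in TCR+PI3Kdi.

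The order of the groups differed between members. Tgfb1 ran from TCR+PI3Kdi through TCR+MEKi and unstimulated to TCR, and only the last step passed the threshold. Tgfbr1 ran from TCR through unstimulated and TCR+MEKi to TCR+PI3Kdi, and no step between neighbours passed. Tgfbr2 ran from TCR through TCR+MEKi and TCR+PI3Kdi to unstimulated, with the inhibitor groups not told apart. Smad3 ran from TCR+MEKi through unstimulated and TCR+PI3Kdi to TCR, with the last pair not told apart. For Smad7, Ski and Skil the unstimulated group was lowest and differed from the next one, and no later step passed. Neighbouring groups did not differ at any step for Smad2 or Smad4.

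Over the 12 cultures, log2 values of Tgfbr2 ran opposite to those of Smad7 and Ski (Pearson r = -0.95 for both), and Smad7, Ski and Skil ran together (r from 0.87 to 0.90). These correlations are descriptions: the points share 4 group means, and the genes share libraries and depth. The 3 genes most like each member by the same r, of 9898 with a mean of at least 1 FPKM, are named next. For Tgfbr2 they were Gbp7, an interferon-induced guanylate-binding protein gene (r = 0.994, from 48.0 FPKM in unstimulated CTL to 10.3 in TCR, 18.7 in TCR+PI3Kdi and 15.9 in TCR+MEKi), Ect2 (0.994), which acts in cytokinesis, and the ethanolamine kinase gene Etnk1 (0.993). For Smad3 they were the scaffold gene Nedd9 (0.980, with 69.9, 105, 85.6 and 56.2 FPKM in that order), Ap1b1 (0.966) and the fatty acid transporter gene Slc27a6 (0.955, with 2.06, 5.61, 7.55 and 0.52 FPKM). For Skil they were Osbpl8 (0.996), the inositol transporter gene Slc5a3 (0.992) and Usp54 (0.992), and for Ski Foxp4 (0.986), Hmgxb3 (0.984) and Myc (0.984, with 125, 290.4, 223 and 290.3 FPKM). For Smad7 they were the vitamin transporter gene Slc5a6 (0.984), Cldnd2 (0.983) and Tgif2 (0.977). The remaining members had looser neighbours: Prmt2 (0.960), Ttbk2 (0.919) and Pde4d (0.900) for Tgfbr1, Csnk1a1 (0.940), Ino80c (0.930) and AU019823 (0.918) for Smad2, U2af2 (0.916), Sf1 (0.902) and Synj2 (0.887) for Tgfb1, and Usp34 (0.916), Smek2 (0.906) and Ttf1 (0.905) for Smad4.

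Of 74 other genes of the pathway, listed by function, 56 were in the table. On TCR triggering 16 of the 56 passed both thresholds, 5 higher and 11 lower, against 20.0% of all genes. With the PI3K inhibitor 3 of the 56 were lower than in TCR (1.88% of all genes passed both thresholds there, 1.38% lower). With the MEK inhibitor 1 was higher and 1 lower (3.49% of all genes, 0.980% higher and 2.51% lower), and 1 was higher with the MEK than with the PI3K inhibitor (3.09% of all genes, 1.39% higher). None of these calls changed direction under quantile normalisation or TPM scaling, but not all stayed over 2-fold. With the PI3K inhibitor against TCR, 2 genes instead of 3 passed both thresholds under either scaling. Furin was then under 2-fold (-0.89 with quantile normalisation, -0.91 with TPM scaling). A pseudocount of 1 also left 2, with Id1 under 2-fold (-0.66). Of the genes past the adjusted p whatever the fold, 6 of 41 on TCR triggering and 3 of 17 with the MEK inhibitor against TCR changed sign on the TPM scale.

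Among genes of ligands and latency, 6 of 13 were measured. Furin, whose protease cleaves the TGF-β precursor, rose from 47.1 ± 6.1 FPKM in unstimulated CTL to 370.2 ± 26.3 in TCR (log2 change 2.98 ± 0.09, adjusted p = 3.9e-13), and measured 174 ± 14 with the PI3K and 258 ± 11 with the MEK inhibitor. Both inhibitor levels were lower than TCR (-1.09 ± 0.09 and -0.52 ± 0.09, adjusted p = 1.1e-06 and 0.000339). Lrrc32, which codes for GARP, and Lrrc33, now named Nrros, code for proteins that hold latent TGF-β at the cell surface. Lrrc32 fell from 48.5 ± 6.2 to 10.5 ± 0.4 FPKM on TCR triggering (-2.19 ± 0.10, adjusted p = 9.7e-11) and was higher than TCR with either inhibitor (14.003 ± 1.788 and 19.4 ± 1.7 FPKM, adjusted p = 0.011 and 1.8e-05). Lrrc33 fell from 99.6 ± 1.4 to 26.2 ± 3.1 FPKM (-1.93 ± 0.08, adjusted p = 1.6e-11), with 24.6 ± 1.8 and 28.1 ± 1.2 FPKM with the PI3K and MEK inhibitors. Tgfb3, a further ligand gene, stayed under 1 FPKM in every group mean, and its changes rest on few reads.

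Of 12 other receptors of the family 9 were measured, and 6 of these were lower on TCR triggering at an adjusted p under 0.05, against 34.9% of all genes, 5 of them over 2-fold, against 11.1% of genes. None was higher at that threshold, and the 3 that missed it were Acvr1 (log2 change 0.25), Bmpr2 (0.43) and Bmpr1a (-0.16), which were named after their values were seen. The median log2 change of the list was -1.04, against -0.01 for all genes. It was -1.501 on the TPM scale and -0.74 with a pseudocount of 1, which shrinks the folds of low genes. Acvrl1, a type I receptor gene, fell from 23.5 ± 3.4 to 8.59 ± 2.11 FPKM (-1.46 ± 0.20, adjusted p = 1.1e-05), and measured 6.34 ± 2.01 with the PI3K inhibitor (adjusted p = 0.112 against TCR) and 4.77 ± 0.72 with the MEK inhibitor, which was lower than TCR (-0.82 ± 0.20, adjusted p = 0.00506). Eng, the gene of the co-receptor endoglin, fell from 2.84 ± 0.68 to 0.657 ± 0.065 FPKM (-1.94 ± 0.20, adjusted p = 5.6e-07). Acvr2a, an activin receptor gene, fell from 2.69 ± 0.23 to 0.873 ± 0.266 FPKM and was higher than TCR with the PI3K inhibitor (1.54 ± 0.21, adjusted p = 0.00887). Tgfbr3, the gene of betaglycan, which presents the ligand to TGFBR2, fell from 2.90 ± 0.36 to 0.950 ± 0.104 FPKM and was also higher with the PI3K inhibitor (1.53 ± 0.23, adjusted p = 0.00663). With a pseudocount of 1 the falls on TCR triggering of Acvr2a (-0.987) and Tgfbr3 (-0.996) were just under 2-fold, and those of Acvrl1 (-1.37) and Eng (-1.20) stayed over it.

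**Figure D4:**
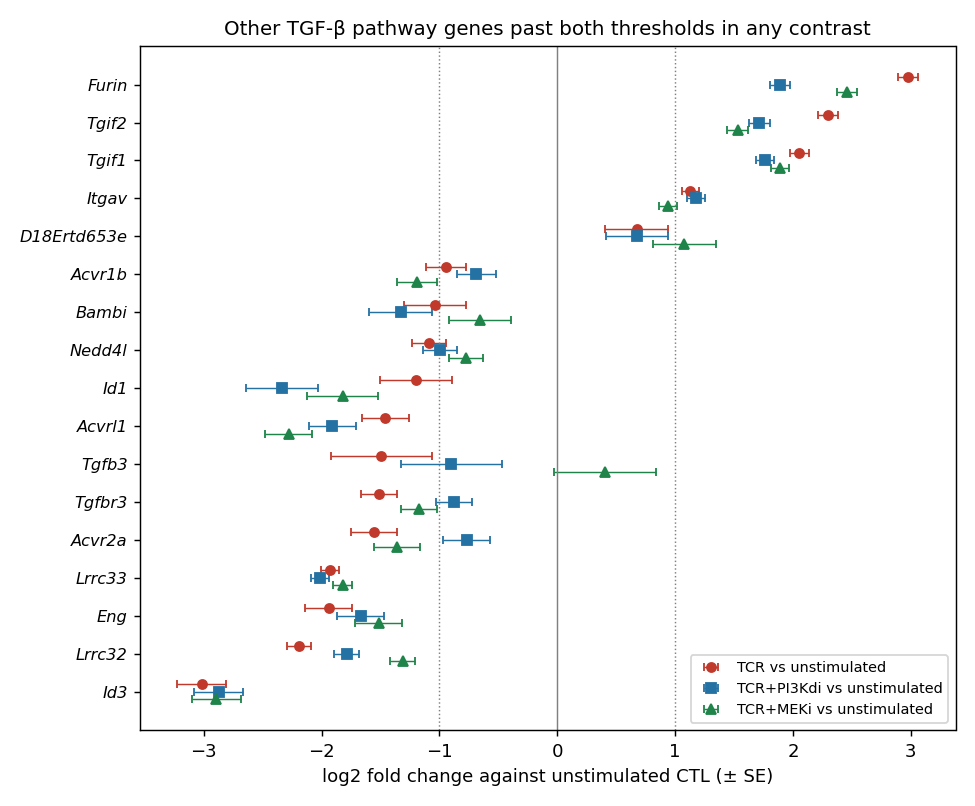
Log2 fold change against unstimulated CTL, with its SE, of listed pathway genes past both thresholds in any of 6 comparisons, in TCR (circles), TCR+PI3Kdi (squares) and TCR+MEKi (triangles); dotted lines mark 2-fold. Furin, Tgif2 and Tgif1 were furthest to the right on TCR triggering and Id3 furthest to the left.

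On TCR triggering 33.6% of all genes were higher and 34.9% lower at an adjusted p under 0.05, which is the share to set beside the next counts. Among 11 genes of ubiquitin ligases, deubiquitinases and phosphatases, 3 were higher and 6 lower at that threshold. Only Nedd4l, a ubiquitin ligase gene, passed 2-fold (2.14 ± 0.12 to 0.953 ± 0.090 FPKM, -1.09 ± 0.15, adjusted p = 9.2e-06). Its fall was under 2-fold with a pseudocount of 1 (-0.68). Among 8 measured genes of other SMADs and their anchors or adaptors, 4 were higher and 3 lower and 0 passed 2-fold. D18Ertd653e, now named Ldlrad4, passed it in TCR+MEKi against unstimulated CTL (0.413 ± 0.078 to 1.03 ± 0.42 FPKM, adjusted p = 0.00275). At these low levels its log2 change of 1.08 dropped to 0.50 with a pseudocount of 1. Of 7 genes of the non-SMAD branch 2 were higher, 1 lower and 0 past 2-fold. These counts depended on the scale: on the TPM scale the lists had 0, 0 and 1 genes higher and 8, 4 and 5 lower, in the order given. Among 11 nuclear partners of SMADs, 3 were higher and 4 lower (2 and 7 on the TPM scale), and the co-repressor genes Tgif1 and Tgif2 passed 2-fold. Tgif2 rose from 2.96 ± 0.18 to 14.9 ± 0.9 FPKM (2.30 ± 0.09, adjusted p = 5.9e-12) and was lower than TCR with either inhibitor (9.95 ± 0.73 and 8.73 ± 0.39 FPKM, adjusted p = 0.000228 and 9.6e-06), and Tgif1 rose from 7.76 ± 0.43 to 32.5 ± 1.2 FPKM (2.06 ± 0.08, adjusted p = 6.4e-12).

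Of 11 genes known to respond to TGF-β in various cells, 7 were measured. On TCR triggering 5 were higher and 2 lower (3 and 2 on the TPM scale), against 33.6% and 34.9% of all genes. The median log2 change of the list was 0.68, or 0.29 on the TPM scale, and Tgif1, described above, was among the higher genes. Id3 and Id1, genes of inhibitors of DNA-binding factors, fell on TCR triggering, Id3 from 6.51 ± 1.22 to 0.710 ± 0.069 FPKM (-3.02 ± 0.21, adjusted p = 6.9e-09) and Id1 from 4.91 ± 0.41 to 2.08 ± 0.18 FPKM (-1.20 ± 0.30, adjusted p = 0.00279). Id1 was lower still with the PI3K inhibitor (1.01 ± 0.61 FPKM, adjusted p = 0.0133), whereas Id3 measured 0.817 ± 0.249 and 0.783 ± 0.106 FPKM with the inhibitors. With a pseudocount of 1 the fall of Id1 was -0.94 on TCR triggering and -0.66 with the PI3K inhibitor against TCR. Both were then under 2-fold but still past the adjusted p.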

How the data were processed

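Libraries were made with a stranded mRNA kit and sequenced as paired ends. The authors aligned reads to mm10 with STAR 2.4.2a, counted RefSeq genes with Subread 1.5.0 (use of strand is not given in the sources used here), filtered low genes, applied TMM and deposited FPKM from the edgeR rpkm function, rounded to 2 decimals, with replicates not pooled. Value columns not assigned to a sample numbered 0.

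Here log2(FPKM + 0.1) of 11022 genes was fitted with limma 3.58.1 in R 4.3.3, with 1 mean per group over all 12 samples, trended eBayes and Benjamini-Hochberg adjustment over all genes. Passing means an adjusted p under 0.05, and the further threshold was more than 2-fold. Adding 0.1 understates the change of low genes. SEs and 95% intervals come from this fit, and fold changes stated as ratios are of mean FPKM. Ratios within a culture were tested by exact permutation over all 12 samples, without regard to replicate number (369600 arrangements). Python 3.11.15 with NumPy 2.4.6 and pandas 2.3.3 did the rest. On simulated data for TCR against unstimulated, 200 of 11022 genes were changed. Of these, 199 were recovered (99.5%) with 0 false calls, and a contrast with no change gave 0 calls. Recovery of genes changed by less than 2-fold was not tested.

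Named were the 9 members, up to 4 genes per pathway list with the largest change among those past both thresholds in any comparison, and the 3 genes most correlated with each member, except that 1 pathway gene is not reported here by name. The members and lists were chosen with earlier results of these data known. Approximate depth came from the steps of low FPKM and GENCODE exon lengths. In each sample 45.0% to 61.4% of the 44 to 77 low values used lay within 0.15 of a whole read, so reads were not recovered. Promoters were looked up for 6 members and found for 5. The 50 bases after the start were left out. Alternatives were a pseudocount of 1, a minimum mean of 1 FPKM, the TPM scale, quantile normalisation, a replicate block and leaving out each culture.

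The sources do not say whether an equal replicate number means 1 mouse. Deviations from the group means were correlated over 9899 genes between cultures with the same number. The r was 0.24 to 0.45 between TCR+PI3Kdi and TCR and 0.12 to 0.18 between TCR+MEKi and TCR. It was 0.14 to 0.15 between TCR+MEKi and TCR+PI3Kdi and 0.12 to 0.15 between TCR+MEKi and unstimulated. Between TCR and unstimulated it was 0.0037 to 0.15. In all these comparisons each r exceeded the highest r with a culture of another number. Between TCR+PI3Kdi and unstimulated it was -0.06 to 0.11, and another number gave a higher r for replicates 1 and 3 (0.12 and 0.04). Since a replicate number would pair all 4 groups or none, these mixed values do not settle the pairing.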

Additional observations from a re-analysis of the deposited data

Results flagged for a closer look

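The effects of the inhibitors on the same TCR cultures differed in 2 members by the test of the difference itself. For Smad3 the MEK inhibitor effect minus the PI3K inhibitor effect was -0.82 (log2, limma adjusted p = 1.1e-05, lower in 3 of 3 same-numbered pairs). For Skil that difference was -0.29 (limma adjusted p = 0.00972, 3 of 3 pairs), a call lost on the TPM scale or without TCR+MEKi replicate 3. Both differences are the comparison of TCR+MEKi with TCR+PI3Kdi already given above, and not a further test. Groups of 3 cultures are too small for the test of single outlying samples used here, so none was run.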

How the results depend on the processing

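All members kept their direction and their side of the adjusted p threshold in the 54 tests (9 members in 6 comparisons) with a pseudocount of 1, with a minimum mean of 1 FPKM and with the replicate block. The block (pairing by replicate number) gave 2206, 209, 389, 349, 1610 and 1478 genes past both thresholds against 2202, 207, 385, 341, 1608 and 1478 without it (in the order TCR against unstimulated, PI3K and MEK inhibitor against TCR, MEK against PI3K inhibitor, PI3K and MEK inhibitor against unstimulated), so it changed no member's call and moved no count by over 1.5 times. On the TPM scale 30 of 54 tests were unchanged in direction and side of the threshold, 8 were no longer past it, 5 newly past it, and 11 changed sign: on TCR triggering Tgfb1 (-0.14), Smad2 (-0.27) and Smad4 (-0.19), Smad3 with the PI3K inhibitor (0.00031), Smad4 (0.16), Ski (0.19) and Skil (0.18) with the MEK inhibitor, and against unstimulated Smad2 with the PI3K inhibitor (-0.087) and Tgfbr1 (-0.0095), Smad2 (-0.0056) and Smad4 (-0.026) with the MEK inhibitor. The TPM scale itself shifts the median of all genes. After quantile normalisation 45 of 54 were unchanged, and Smad2 changed sign with the PI3K (-0.057) and MEK (-0.045) inhibitor against TCR. Leaving out single cultures turned the sign of changes near 0 only: Smad2 ranged from -0.027 to 0.055 with the PI3K and from -0.025 to 0.057 with the MEK inhibitor against TCR and from -0.020 to 0.030 between the inhibitors, and Tgfb1 from -0.061 to 0.052 in TCR+MEKi against unstimulated. For all genes, a pseudocount of 1 lowered the counts past both thresholds to 1405, 90, 201, 150, 979 and 873 in the order above, by shrinking the folds of low genes, and the TPM scale raised that of the MEK inhibitor against TCR to 578, of which the cause was not tested. Of the 56 other pathway genes, a pseudocount of 1 left 10 past both thresholds on TCR triggering (16 before), 1 with the MEK inhibitor against TCR (2 before), 0 between the inhibitors (1 before, Tgfb3) and 9 in TCR+MEKi against unstimulated (14 before). A minimum mean of 1 FPKM, which removes Tgfb3, left 1 with the MEK inhibitor against TCR and 0 between the inhibitors. Leaving out single cultures gave 0 to 1 between the inhibitors, with 0 without TCR+PI3Kdi replicate 2 or 3 or TCR+MEKi replicate 1 or 3. The 4 ratios stayed past the threshold with a pseudocount of 1 and without any single culture, with exact permutation p of at most 0.0494. The table holds no read totals, so counting error was not separated from the spread between cultures.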
